A study of Mus musculus with 18 samples.

Results

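The genes described here encode the proteins of the cytosolic and of the mitochondrial ribosome. They were chosen by name: rows whose mouse symbol starts with Rpl, Rps, Mrpl or Mrps followed by a number, plus Rplp0, Rplp1, Rplp2 and Rpsa, without names in -ps or Gm and without the Rps6k kinases. The rule found 166 of the 23474 rows of the table, of which 89 were cytosolic (37 of the 40S and 52 of the 60S subunit) and 77 mitochondrial (29 of the 28S and 48 of the 39S subunit). Subunits were assigned by the name alone. Messenger RNA had been sequenced from epididymal white adipose tissue (eWAT, the fat pad beside the epididymis) and liver of male C57BL/6J mice, a common inbred strain whose strain field reads C56BL/6J. Every mouse was 17 weeks of age; feeding had begun at 5 weeks and lasted 12 weeks. In each tissue 3 libraries came from high-fat diet-prone mice (HP), 3 from high-fat diet-resistant mice (HR) and 3 from mice on a normal diet (ND), 18 libraries in all. The labels describe a random division and leave out what separated prone from resistant animals. They also do not state 1 mouse per library, so the p-values here reflect sample-to-sample spread that may partly be technical.

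Cytosolic ribosomes translate nuclear-encoded messages, while the separate ribosomes inside mitochondria translate the few membrane proteins of the respiratory chain that the mitochondrial genome encodes. All proteins of both particles are nuclear-encoded. Messages of cytosolic ribosomal proteins typically begin with a C followed by a run of pyrimidines (the 5′ terminal oligopyrimidine or TOP start), through which nutrient signals control their translation, and promoters of both classes often hold ETS-family sites.

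The windows printed here show such starts and sites in selected members that are named below. They are RefSeq promoter windows of mouse build GRCm38.p6, from 70 bases before the annotated start to 30 bases from it, 5′ to 3′ on the gene's strand. Capitals mark CCGGAAG or its reverse complement (the ETS/GABP motif), AAGATGG (the YY1 motif) and any pyrimidine run that begins at the first transcribed base with a C and at least 4 further pyrimidines. The 60S protein genes Rpl15 (chr14:18270957-18271056, minus strand) and Rpl38 (chr11:114668510-114668609, plus strand) hold both a TOP start and an ETS match. Rps27l (chr9:66946016-66946115, plus strand), a paralogue of the 40S gene Rps27, and the mitochondrial 39S gene Mrpl57 (chr14:57826169-57826268, plus strand) hold an ETS match and no TOP start at the annotated base. Another RefSeq window of Rps27l lacks the ETS match. All windows printed here hold that match, while those of Rps28 and Mrps36, also named below, do not. The mitochondrial 28S gene Mrps27 (chr13:99344716-99344815, plus strand) holds a reverse ETS match before the start and a YY1 match after it.
Rpl15: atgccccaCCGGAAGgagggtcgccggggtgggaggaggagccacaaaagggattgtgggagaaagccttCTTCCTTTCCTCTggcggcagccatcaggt
Rpl38: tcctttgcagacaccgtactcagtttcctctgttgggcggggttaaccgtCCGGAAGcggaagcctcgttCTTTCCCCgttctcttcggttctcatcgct
Rps27l: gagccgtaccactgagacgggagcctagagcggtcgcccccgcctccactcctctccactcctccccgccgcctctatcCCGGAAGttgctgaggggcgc
Mrpl57: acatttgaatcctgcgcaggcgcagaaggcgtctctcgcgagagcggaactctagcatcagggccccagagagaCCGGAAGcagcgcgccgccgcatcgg
Mrps27: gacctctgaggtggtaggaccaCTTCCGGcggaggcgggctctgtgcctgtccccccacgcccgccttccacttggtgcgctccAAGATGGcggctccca

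Over whole windows of 300 bases (250 before the start and 50 from it), RefSeq gave 77 windows for 65 cytosolic members and 74 for 68 mitochondrial ones, against 32851 windows of all genes. A TOP start stood at the annotated base in 18.2% of cytosolic windows, none of the mitochondrial windows and 2.51% of all windows. CCGGAAG on either strand was in 35.1% of cytosolic, 33.8% of mitochondrial and 8.86% of all windows. AAGATGG was in 15.6%, 17.6% and 6.34% of the same sets, GCGCATG (part of the NRF1 motif) in 11.7%, 9.46% and 3.91%, and GGGCGG (SP1) in 59.7%, 52.7% and 35.7%. The TATA box TATAAA was in 9.09% of cytosolic, 6.76% of mitochondrial and 13.6% of all windows. The ETS, YY1 and NRF1 letters were thus about as frequent in the promoters of both ribosomes, while the TOP start was found in those of the cytosolic ribosome. CTTTCC, which can lie within a TOP start, was in 50.6%, 32.4% and 26.6% of windows, and CTTTTCC in 15.6%, 8.11% and 8.06%. A match describes letters and is not a site shown to be bound.

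Of the 166 members, 85 cytosolic and 75 mitochondrial genes reached at least 1 FPKM in at least 3 libraries of eWAT, and 83 and 75 did so in liver. FPKM are fragments per kilobase of transcript, scaled to the mapped fragments of the library, and this filter set which members were tested. Mrpl2, Mrpl17 and Rpl7l1 were listed at 0 in all 18 libraries, although both mitochondrial genes among them are widely expressed; a listed 0 can be a failed estimate, as for the hepatocyte gene Alb, which was listed at 0 in liver HP 3 and at 21466 FPKM or more in the other liver libraries. Rpl3l, Rpl6l and Rps3a3 missed the filter in both tissues, and Rpl10l and Rpl39l passed only in eWAT. The name rule also takes in genes that are not plain ribosomal proteins. Rps19bp1 encodes a binding partner of Rps19, GENCODE lists Rpl37rt, Rpl6l, Rps3a2, Rps3a3 and Rps4l as processed pseudogenes, Rps27rt is a retrocopy of Rps27, and Mrps36 has since been described as a subunit of the 2-oxoglutarate dehydrogenase complex. Ribosomal protein messages have many near-identical retrocopies, 27 of them listed under -ps names, so values of single cytosolic genes depend on how the authors' counting split shared reads. Exons of 16 cytosolic and 23 mitochondrial members overlap a protein-coding gene in GENCODE M21, and the strand setting of the counting is not given in the sources used here. Among members described below, Rps28, Rpl5, Rps25, Rpl15, Mrpl27, Mrps30, Mrpl14 and Mrpl18, for example, overlap such a gene on the opposite strand. Their values may hold reads of both genes if the counting ignored the strand.

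Fat libraries ND 1 and HR 2 differed from the rest: their median correlation with other fat libraries, across genes that are not independent replicates, was 0.33 and 0.42. It was 0.81 or more for the remaining 7 and 0.96 or more among livers. Genes of spermatids (Tnp1, Tnp2, Prm1 and Prm2) summed to 92413 FPKM in ND 1, 11231 in HR 2, 2282 in ND 3, 1738 in HP 1 and at most 128 in the other eWAT libraries, and to 0 in liver. Secretory genes of the epididymis summed to 19570 FPKM in eWAT ND 1 and 1276 in eWAT HP 2. Comparisons in eWAT are therefore given over all 9 libraries and over the 7 without ND 1 and HR 2. The defining markers of each labelled tissue were present: the adipocyte genes summed to 3533 FPKM or more in every eWAT library and the hepatocyte genes to 12675 or more in every liver library. In bulk tissue, fewer cells of a type and less RNA per cell cannot be told apart.

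Cytosolic members were more abundant per length than mitochondrial ones. In liver the median cytosolic member averaged 206 FPKM over the 9 libraries, with 66 of 83 at 100 FPKM or more, and the median mitochondrial member averaged 23.6 FPKM, with only Mrpl52 at 100 or more. In eWAT the same medians were 308 FPKM for the cytosolic and 21.3 FPKM for the mitochondrial members that passed. All eWAT means in this paragraph are over 9 libraries and include ND 1, which raised these class levels. The median over all cytosolic members was 771 FPKM in eWAT ND 1, against 123 to 310 FPKM in the other eWAT libraries. For mitochondrial members it was 41.0 FPKM in eWAT ND 1, against 15.4 to 20.6 FPKM in the others. The retrocopy Rps27rt had the highest mean level of the cytosolic class in both tissues (1533 FPKM in eWAT and 734 in liver) and Mrpl52, a 39S protein, that of the mitochondrial class (120 and 121 FPKM). Mrpl19 had the lowest level among the mitochondrial members that passed, at 3.52 FPKM in eWAT and 3.49 in liver.

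**Figure D1:**
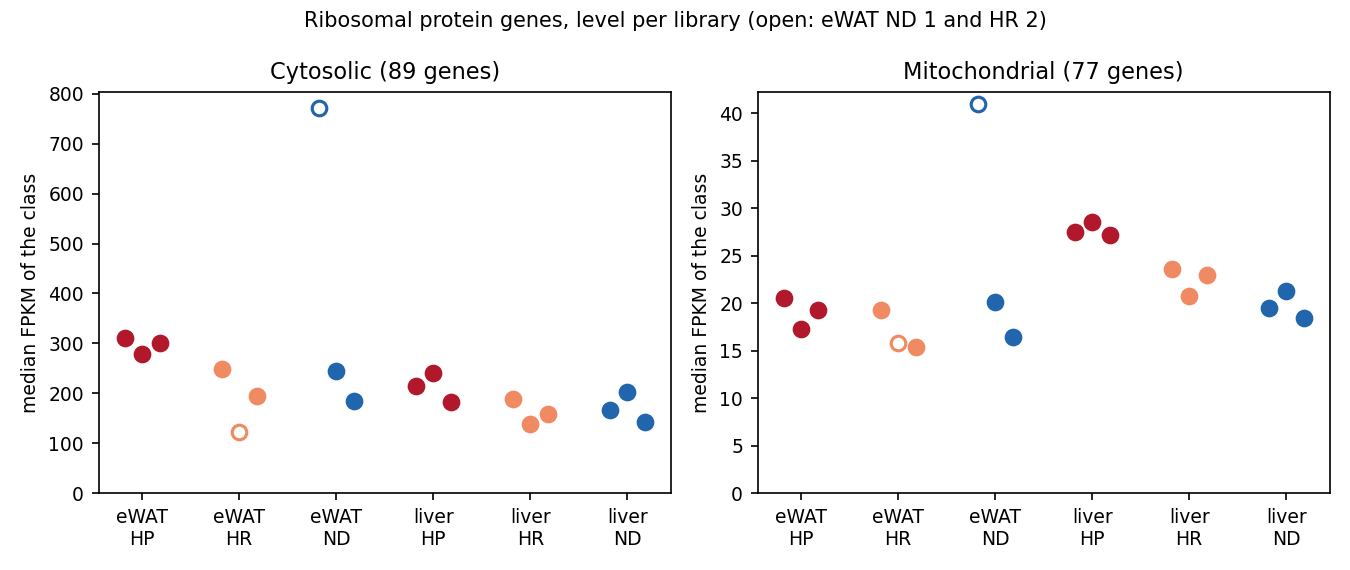
Median FPKM of the 89 cytosolic (left) and 77 mitochondrial (right) members in each of the 18 libraries, by group; each point is 1 library and open points are eWAT ND 1 and HR 2. eWAT ND 1 reached 771 FPKM for the cytosolic class, and the 3 HP livers lie between 27.2 and 28.6 FPKM for the mitochondrial class, above the HR and ND livers.

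The summed level of the classes followed the diet groups differently in the 2 tissues. In liver the mitochondrial members summed to 2436 ± 249 FPKM in HP, 1938 ± 153 in HR and 1672 ± 169 in ND mice (SD, n = 3 each), and the lowest HP library (2260) lay above the highest HR (2051) and ND (1867) libraries. The cytosolic members summed to 20217, 26008 and 19969 FPKM in the HP livers, 18346, 13318 and 15849 in the HR livers and 14941, 19186 and 13644 in the ND livers, so HP 2 was the highest library and the other HP livers lay just above ND 2. The ratio of cytosolic to mitochondrial sums in liver was 9.03 ± 0.47 in HP, 8.14 ± 0.72 in HR and 9.48 ± 0.80 in ND mice, and the groups overlapped. In eWAT the ratio was 15.6, 16.2 and 16.2 in the HP libraries, 14.5, 9.91 and 13.2 in the HR libraries and 22.6, 13.0 and 12.9 in the ND libraries. Without ND 1 and HR 2, every HP fat pad lay above the HR and ND ones, and the cytosolic members took 5.27% of all FPKM in HP (SD 0.27, n = 3), 4.12% in HR (SD 0.61, n = 2) and 3.86% in ND (SD 0.25, n = 2). These sums are descriptions without a test.

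The first comparison in liver was between prone mice and mice on the normal diet. Of the 83 cytosolic members tested, 30 were higher and 3 lower in HP than in ND livers at an adjusted p under 0.05, with a median log2 difference of 0.47. Over all 10633 genes tested, 17.6% were called higher and 14.1% lower, with a median of -0.02. The higher members came from both subunits (10 of 36 tested 40S and 20 of 47 tested 60S genes), and the 3 lower ones, Rpl3, Rpl5 and Rplp0, all belong to the 60S subunit.

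Among the cytosolic genes that rose, Rps27l, an inducible paralogue of Rps27 known as a p53 target, stood at 391, 570 and 440 FPKM in HP livers, against 212, 246 and 171 FPKM in ND livers. The groups did not overlap, and the log2 difference was 1.15 ± 0.18 (SE, adjusted p = 0.0018). Its partner Rps27 had 440, 575 and 393 FPKM in HP livers, against 291, 482 and 273 FPKM in ND livers; these overlapped and the call was missed (log2 0.46, adjusted p = 0.15). Rps28, a small protein at the mRNA exit of the 40S subunit, had 311, 520 and 268 FPKM in HP livers, against 185, 192 and 141 FPKM in ND livers (log2 1.03 ± 0.25, adjusted p = 0.011). HP 2 was the highest of the 9 livers for this gene. Rpl39, which lines the exit tunnel of the 60S subunit, had 152, 190 and 138 FPKM in HP livers, against 60.03, 107 and 74.5 FPKM in ND livers (log2 1.01 ± 0.21, adjusted p = 0.0055). Rpl38, a 60S protein that in mice is needed for the translation of certain Hox messages, had 429, 667 and 458 FPKM in HP livers, against 229, 358 and 221 FPKM in ND livers (log2 0.95 ± 0.23, adjusted p = 0.013). Rps19bp1 differed by 1.06 ± 0.17 (adjusted p = 0.0018). All HP values of these members lay above all their ND values.

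The 3 genes that fell in HP livers encode proteins of central 60S structures. Rpl5, which carries the 5S ribosomal RNA, had 127, 107 and 103 FPKM in HP livers, against 160, 172 and 154 FPKM in ND livers (log2 -0.53 ± 0.13, adjusted p = 0.011). Rpl3, a protein close to the peptidyl transferase centre, had 107, 97.0 and 94.5 FPKM in HP livers, against 141, 155 and 127 FPKM in ND livers (log2 -0.49 ± 0.13, adjusted p = 0.019). Rplp0, the base of the stalk on which Rplp1 and Rplp2 sit, had 206, 190 and 163 FPKM in HP livers, against 252, 291 and 232 FPKM in ND livers (log2 -0.47 ± 0.14, adjusted p = 0.025). For each of these genes every HP liver was below every ND liver, and the HR livers lay partly between them. The stalk protein Rplp1 was among the genes that rose, at 705, 845 and 638 FPKM in HP livers, against 425, 609 and 414 FPKM in ND livers.

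**Figure D2:**
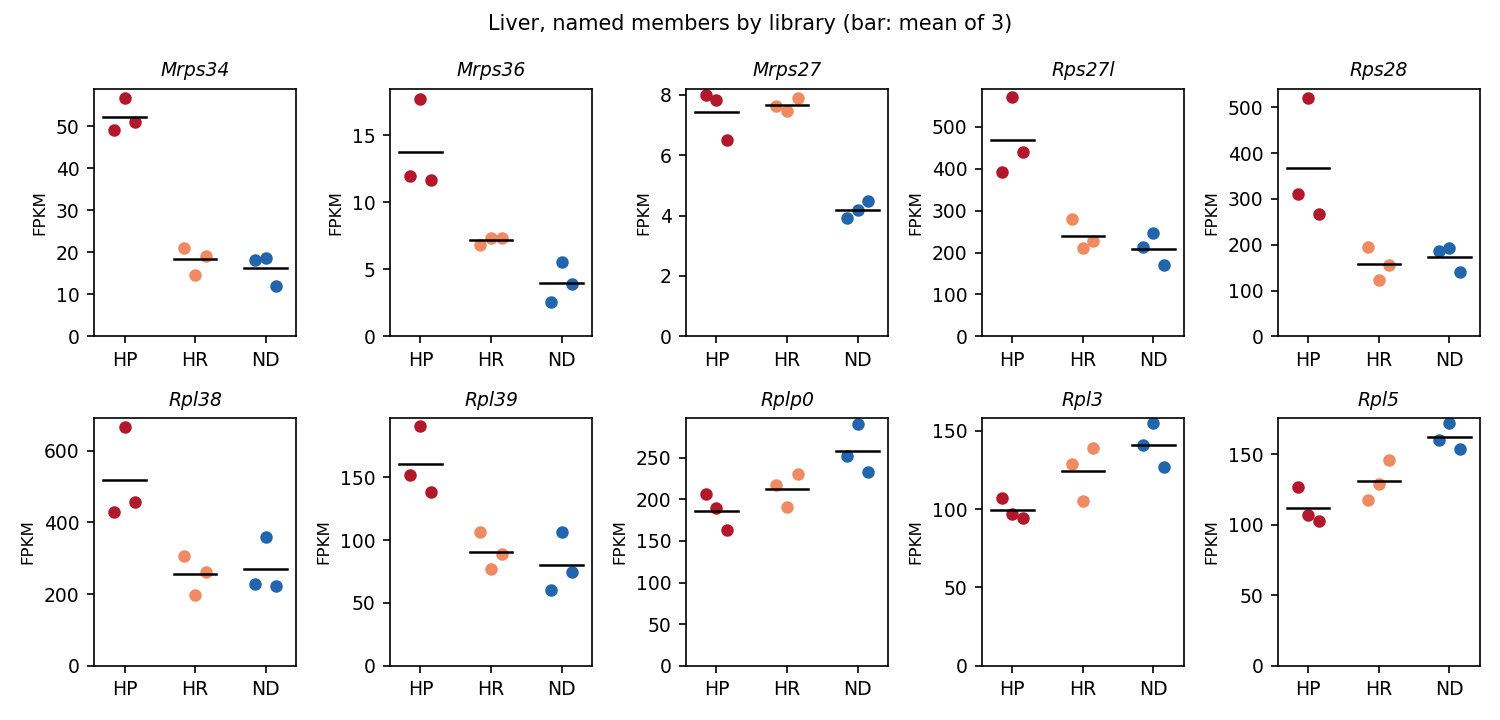
FPKM of 10 named members in each of the 9 liver libraries, HP, HR and ND from left to right; points are libraries and bars the mean of 3. Mrps34 stood at 49.1 to 56.7 FPKM in HP livers, above all HR and ND livers, while Rplp0, Rpl3 and Rpl5 were lower in every HP liver than in any ND liver.

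Of the 75 mitochondrial members tested in the same comparison, 46 were higher and 1 was lower in HP than in ND livers, against 17.6% higher and 14.1% lower over all genes. Their median log2 difference was 0.49, and 69 of the 75 differences were positive. By name, the 39S subunit gave 29 higher genes of 46 and none lower, and the 28S subunit 17 higher and 1 lower of 29. The 28S names include Mrps36 and Mrps30, whose other placements are given elsewhere in this text. Mrps34, a 28S protein, had 49.1, 56.7 and 51.1 FPKM in HP livers, against 18.3, 18.7 and 12.0 FPKM in ND livers. All HP libraries lay well above the others, and the log2 difference of 1.65 ± 0.18 was the largest of any member (adjusted p = 0.00028). Exons of Mrps34 share a strand with exons of the nucleoside diphosphate kinase gene Nme3, and the value may count reads of both. Mrps36 had 11.9, 17.7 and 11.6 FPKM in HP livers, against 2.59, 5.56 and 3.89 FPKM in ND livers (log2 1.58 ± 0.21, adjusted p = 0.00078).

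Mrpl54, a 39S protein, had 34.9, 44.4 and 32.6 FPKM in HP livers, against 13.7, 20.2 and 12.5 FPKM in ND livers (log2 1.24 ± 0.20, adjusted p = 0.0019). Mrps24, a 28S protein whose exons overlap Urgcp on the same strand, had 44.2, 39.2 and 35.5 FPKM in HP livers, against 16.3, 19.8 and 14.04 FPKM in ND livers (log2 1.21 ± 0.16, adjusted p = 0.00063). Mrps21, the counterpart of bacterial protein S21, differed by 1.04 ± 0.17 (adjusted p = 0.0020), and Mrpl27, the counterpart of bacterial L27 at the peptidyl transferase centre, by 0.98 ± 0.18 (adjusted p = 0.0038). The single gene that fell was Mrps23, a 28S protein, with 13.3, 11.8 and 10.9 FPKM in HP livers, against 19.5, 16.8 and 19.0 FPKM in ND livers (log2 -0.58 ± 0.18, adjusted p = 0.033). HP and ND livers did not overlap for Mrpl54, Mrps24, Mrps21, Mrpl27 or Mrps23. Of 6 proteins of the mitochondrial ribosome that carry other names, 3 also rose: the 39S factor Gadd45gip1 by 0.93 ± 0.19, Aurkaip1 by 0.70 ± 0.17 and the GTP-binding 28S protein Dap3 by 0.47 ± 0.16 (adjusted p = 0.0061, 0.012 and 0.045).

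Leaving out single libraries gave 13 cytosolic calls without HP 2, 15 without ND 1, 17 without ND 3 and 53 without ND 2, and 31 mitochondrial calls without HP 2 or without ND 3. Rescaling every library to the same FPKM sum shifted the median of all genes to -0.20 and gave 25 higher and 5 lower cytosolic and 30 higher and 3 lower mitochondrial members. The shares of all genes called in these alternative fits are not given here. Whether the member counts moved with those shares is therefore not shown. Skeletal muscle genes summed to 98.9 FPKM in liver HP 2 and 19.9 in HP 3, against 0.95 or less in the other livers. Adipocyte genes summed to 107 to 152 FPKM in HP, 40.9 to 43.5 in HR and 36.7 to 64.8 in ND livers. In HP livers that adipocyte sum came mostly from Cidec (71.8, 76.7 and 115 FPKM) and Fabp4 (35.7, 30.2 and 36.7 FPKM). Adipoq had only 1.40, 0 and 0.17 FPKM there, and Plin1 0.40, 0 and 0 FPKM. The part of either list in the result was not tested.

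Differences in liver also ran with transcript length, within each class and across all genes. The Spearman correlation across genes between length and the HP minus ND difference was -0.41 over all genes, -0.31 over the 83 cytosolic and -0.45 over the 75 mitochondrial members, given as a description. Among the 42 shorter cytosolic members 21 rose with a median of 0.61, and among the 41 longer ones 9 rose and 3 fell with a median of 0.33. Among the 38 shorter mitochondrial members 32 rose with a median of 0.67, and among the 37 longer ones 14 rose with a median of 0.23. After each library was corrected for smooth trends in length and GC content, 20 cytosolic members were higher and 5 lower, and 36 mitochondrial members were higher and 2 lower. The part of library preparation in this relation was not tested.

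Lists of genes that act with the ribosome held members called in both directions, and are read against the 17.6% of all genes called higher and 14.1% called lower. Of 22 translation partners, which include elongation and initiation factors, 3 were higher and 4 lower in HP than in ND livers, with a median of 0.07. The elongation factor Eef2 fell by 0.92 (SE 0.14, adjusted p = 0.0013) and the initiation factor Eif4b fell by 0.56 (SE 0.11, adjusted p = 0.0055). Of 32 ribosome biogenesis genes 2 were higher and 5 lower, with a median of -0.11. Fbl, the methyltransferase fibrillarin, rose by 0.47 ± 0.13 (adjusted p = 0.018), and Tsr1, a maturation factor of the 40S subunit, fell by 0.87 (SE 0.22, adjusted p = 0.013). Of 23 genes of mitochondrial translation and transcription 6 were higher and 1 lower, with a median of 0.13. The elongation factor gene Tsfm rose by 1.08 ± 0.18 (adjusted p = 0.0022) and the mitochondrial RNA polymerase gene Polrmt by 0.77 ± 0.21 (adjusted p = 0.020). Tfam, which packages mitochondrial DNA and takes part in its transcription, fell by 0.64 (SE 0.22, adjusted p = 0.048). Polrmt had 9.82, 21.1 and 12.4 FPKM in HP livers, against 7.92, 7.25 and 7.75 FPKM in ND livers. Tfam had 24.0, 12.2 and 21.6 FPKM in HP livers, against 35.9, 27.7 and 25.8 FPKM in ND livers. Liver HP 2 thus lay furthest from the ND livers for both Polrmt and Tfam.

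**Figure D3:**
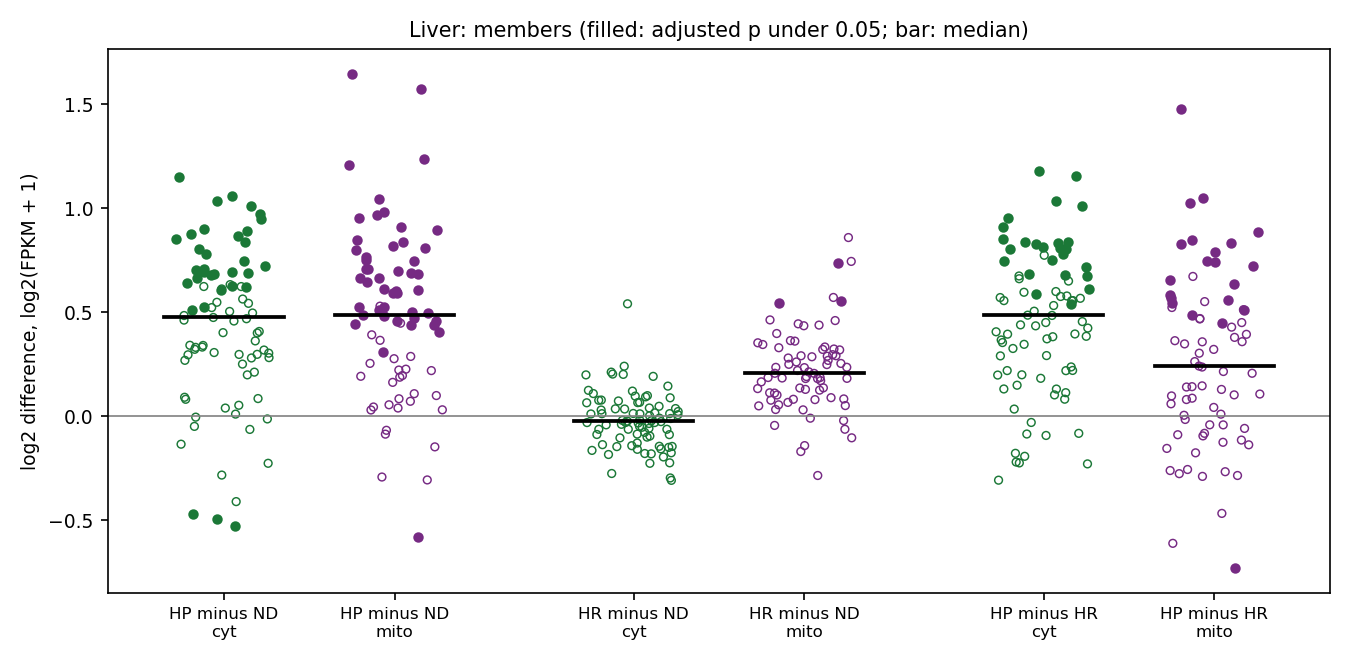
log2 differences of the tested members in liver, 83 cytosolic (green) and 75 mitochondrial (purple), for HP minus ND, HR minus ND and HP minus HR; filled points passed an adjusted p of 0.05 and bars are medians. The medians were 0.47 and 0.49 for HP minus ND, -0.02 and 0.21 for HR minus ND, and 0.48 and 0.24 for HP minus HR.

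Resistant and prone mice ate the same kind of diet, so the comparison between them asks what went with proneness. It shares the HP libraries with the comparison described first, and the values are given side by side only. Of the cytosolic members 25 were higher and none lower in HP than in HR livers (median 0.48), and of the mitochondrial members 20 were higher and 1 lower (median 0.24). Over all genes 7.20% were called higher and 3.94% lower, with a median of -0.03. Rps28 had 311, 520 and 268 FPKM in HP livers, against 194, 123 and 156 FPKM in HR livers (log2 1.18 ± 0.25, adjusted p = 0.017). Rpl36, a 60S protein, had 441, 727 and 528 FPKM in HP livers, against 332, 221 and 268 FPKM in HR livers (log2 1.03 ± 0.23, adjusted p = 0.020). HP and HR livers did not overlap for either gene.

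Mrps34 had 49.1, 56.7 and 51.1 FPKM in HP livers, against 21.2, 14.6 and 19.3 FPKM in HR livers (log2 1.48 ± 0.18, adjusted p = 0.0026). Mrpl57, a short 39S protein, had 7.61, 11.3 and 8.38 FPKM in HP livers, against 4.82, 3.90 and 5.01 FPKM in HR livers (log2 0.85 ± 0.15, adjusted p = 0.0094). Mrps18b, a 28S protein, was the 1 member that fell, with 14.03, 17.3 and 13.9 FPKM in HP livers, against 24.4, 29.4 and 23.2 FPKM in HR livers (log2 -0.73 ± 0.13, adjusted p = 0.011). Each of these 3 genes separated the groups fully. Without HP 2 or without HR 2 a single cytosolic member was called, without HP 3 there were 10 and without HR 3 there were 7. The mitochondrial calls numbered 5 without HP 2, 4 without HR 2 and 10 without HP 3 or HR 3. With all libraries at the same FPKM sum, the median over all genes fell to -0.19, and 22 cytosolic members were higher and 1 lower, while 10 mitochondrial members were higher and 3 lower with a median of 0.05.

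Between resistant mice and mice on the normal diet, the cytosolic class did not move as a group in liver. limma called no cytosolic member (median -0.02, 2 members at an unadjusted p under 0.05) and called 3 mitochondrial members higher, against 2.28% higher and 0.969% lower over all genes. Mrps27, an RNA-binding protein of the 28S subunit, had 7.63, 7.45 and 7.90 FPKM in HR livers, against 3.92, 4.18 and 4.48 FPKM in ND livers (log2 0.74 ± 0.12, adjusted p = 0.0088). Mrpl45, a 39S protein near the tunnel exit at the inner membrane, had 18.7, 17.1 and 18.7 FPKM in HR livers, against 11.9, 12.9 and 11.3 FPKM in ND livers (log2 0.56 ± 0.12, adjusted p = 0.034). Mrps30, which structures place in the large subunit despite its name, had 13.7, 12.8 and 11.5 FPKM in HR livers, against 8.55, 8.94 and 7.63 FPKM in ND livers (log2 0.54 ± 0.11, adjusted p = 0.031). The groups did not overlap for these 3 genes. All 3 were also higher in HP than in ND livers, a comparison that uses the same ND libraries and is therefore not independent. The mitochondrial median was 0.21 against 0.01 over all genes, with 67 of 75 differences positive. Without any 1 of HR 1, HR 2, HR 3, ND 1 or ND 3 the mitochondrial calls dropped to 1.

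Over all 9 eWAT libraries limma called no member of either class in any of the 3 comparisons, where 2.07% of all genes were called higher and 0.0416% lower for HP against ND and none for HR against ND or HP against HR. At an unadjusted p under 0.05, no cytosolic and 4 mitochondrial members passed for HP against ND, no cytosolic and 3 mitochondrial for HR against ND, and 2 of each for HP against HR. The cytosolic members summed to 30575, 26693 and 27759 FPKM in HP fat, 25382, 13969 and 19087 FPKM in HR fat and 109221, 24587 and 19759 FPKM in ND fat, so that ND 1 was the highest library and HR 2 the lowest.

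Paralogues known from male germ cells marked the same libraries. Rpl39l, a germ-cell paralogue of Rpl39, had 7.42, 0.18 and 0.36 FPKM in HP fat, 0.50, 154 and 0.12 FPKM in HR fat and 425, 1.74 and 18.1 FPKM in ND fat, and was listed at 0 in all 9 livers. Rpl10l, an autosomal retrogene that in mice stands in for the X-linked Rpl10 in meiosis, had 7.35, 0 and 0.07 FPKM in HP fat, 0.11, 119 and 0.06 FPKM in HR fat and 120, 0.84 and 13.5 FPKM in ND fat. Both followed the order of the spermatid sum over ND 1, HR 2, ND 3 and HP 1. Rpl10 itself was lowest in HR 2, with 906, 853 and 874 FPKM in HP fat, 776, 187 and 667 FPKM in HR fat and 676, 700 and 593 FPKM in ND fat. Rpl39 was likewise lowest in HR 2, at 31.5 FPKM, against 86.3 to 348 FPKM in the other eWAT libraries. Rpl3l, a paralogue of Rpl3 best known from striated muscle, had 22.8 FPKM in ND 1 and at most 1.48 FPKM in the other eWAT libraries.

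**Figure D4:**
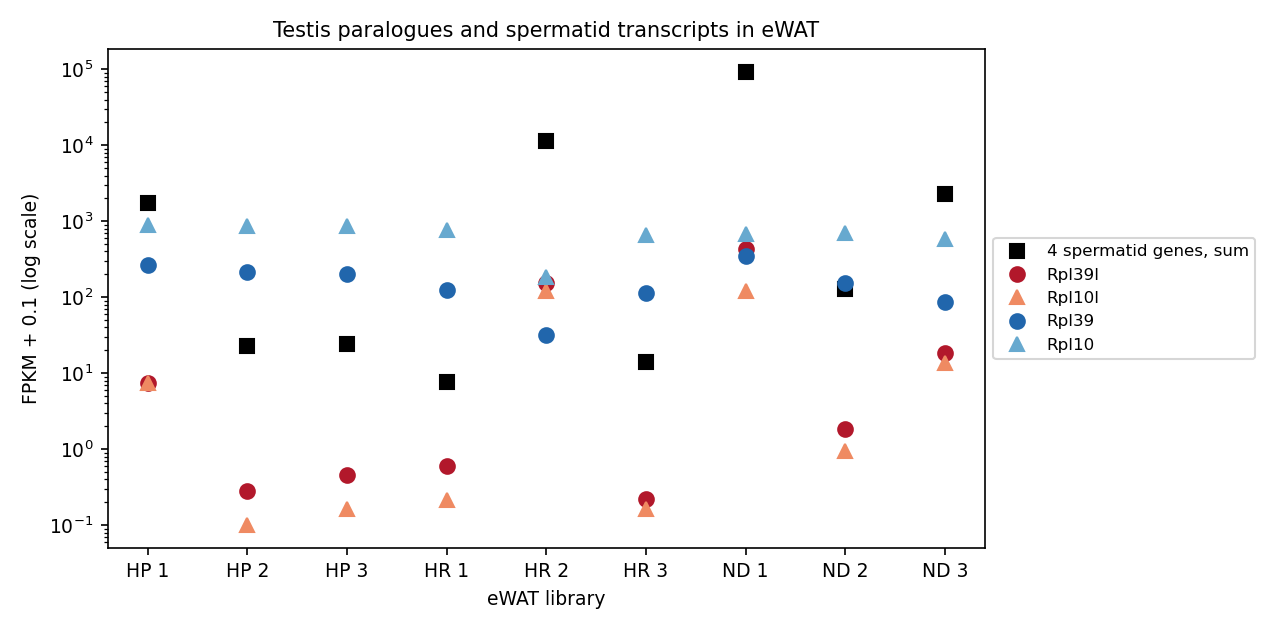
FPKM plus 0.1 (log scale) of the germ-cell paralogues Rpl39l and Rpl10l, of Rpl39 and Rpl10, and of the sum of 4 spermatid genes in each of the 9 eWAT libraries. Rpl39l and Rpl10l reach 425 and 120 FPKM in ND 1 and 154 and 119 FPKM in HR 2, the libraries with the highest spermatid sums.

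The 7 eWAT libraries without ND 1 and HR 2 gave calls in both classes. Of 83 cytosolic members tested, 18 were higher and none lower in HP than in ND fat (median 0.39), and of 75 mitochondrial members none was higher and 1 lower (median -0.01). Over all 13054 genes 15.7% were called higher and 7.40% lower, with a median of 0.01. The cytosolic members called higher were thus 21.7% of those tested. Rps25, a 40S protein used in internal ribosome entry, had 406, 349 and 349 FPKM in HP fat, against 195 and 155 FPKM in ND fat (log2 1.08 ± 0.17, adjusted p = 0.0063). Rpl15, a core 60S protein, had 170, 156 and 163 FPKM in HP fat, against 89.7 and 75.7 FPKM in ND fat (log2 0.97 ± 0.13, adjusted p = 0.0030). All HP libraries lay above both ND libraries for both genes.

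Rpl39 (0.96 ± 0.25, adjusted p = 0.034), Rps23 of the decoding centre (0.89 ± 0.19, adjusted p = 0.016), Rpl10a of the L1 stalk (0.89 ± 0.14, adjusted p = 0.0061) and Rps26 of the mRNA exit channel (0.87 ± 0.19, adjusted p = 0.021) were the next largest log2 differences. Mrpl51, a 39S protein, was the mitochondrial gene that fell, with 32.7, 27.4 and 24.6 FPKM in HP fat, against 43.6 and 38.6 FPKM in ND fat (log2 -0.53 ± 0.15, adjusted p = 0.048). Of the 22 translation partners 3 were higher and 1 lower (median 0.24), among them Rack1, the scaffold protein of the 40S head, by 0.90 ± 0.13 (adjusted p = 0.0040). Of 32 biogenesis genes 3 were higher and 1 lower (median 0.18), led by the snoRNP protein gene Nhp2 at 1.00 ± 0.16 (adjusted p = 0.0058). Macrophage genes summed to 5522, 4181 and 5774 FPKM in HP fat, 1860 and 2228 FPKM in HR fat (HR 1 and HR 3) and 575 and 446 FPKM in ND fat (ND 2 and ND 3), and all 8 of them were called higher in HP than in ND fat. Adipocyte genes summed to 17558, 16438 and 14984 FPKM in HP fat, against 29573 and 18688 FPKM in ND fat (ND 2 and ND 3), and 3 of the 4 were called lower (median log2 difference -0.97). The part of either list in the cytosolic differences was not tested.

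Between HP and HR fat, 4 cytosolic members were higher and none lower (median 0.36), and no mitochondrial member was called (median 0.14, 8 at an unadjusted p under 0.05), against 4.21% higher and 2.25% lower over all genes (median 0.04). The 4 were Rps25 (1.04 ± 0.17), Rps26 (0.98 ± 0.19), Rps23 (0.86 ± 0.19) and Rpl15 (0.82 ± 0.13), with adjusted p of 0.028, 0.037, 0.047 and 0.025, and with the replicate number as a block none of the 4 was called. Rpl15 had 170, 156 and 163 FPKM in HP fat, against 101 and 83.7 FPKM in HR fat, without overlap. Between HR and ND fat no member was called (medians 0.00 and -0.11, none of the cytosolic and 6 of the mitochondrial members at an unadjusted p under 0.05), against 3.85% higher and 0.291% lower over all genes. These fits have 2 HR and 2 ND libraries and depend on each. For HP against ND the cytosolic calls numbered 28 without ND 2, 9 without ND 3, 7 without HP 1, 8 without HP 2 and 6 without HP 3. For HP against HR they were 17 without ND 2, 19 without ND 3 and 0 without any 1 of HP 1, HP 2, HP 3, HR 1 and HR 3. The mitochondrial calls for HP against ND numbered 4 without ND 2, 3 without ND 3, HR 1 or HR 3, 2 without HP 1 and 0 without HP 2 or HP 3, for HP against HR 2 without ND 2 or ND 3, and for HR against ND 1 without ND 3. With all libraries at the same sum, 39 cytosolic and 3 mitochondrial members were higher in HP than in ND fat and none lower. The share of all genes called after this rescaling is not given here, so these counts are not set against it.

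**Figure D5:**
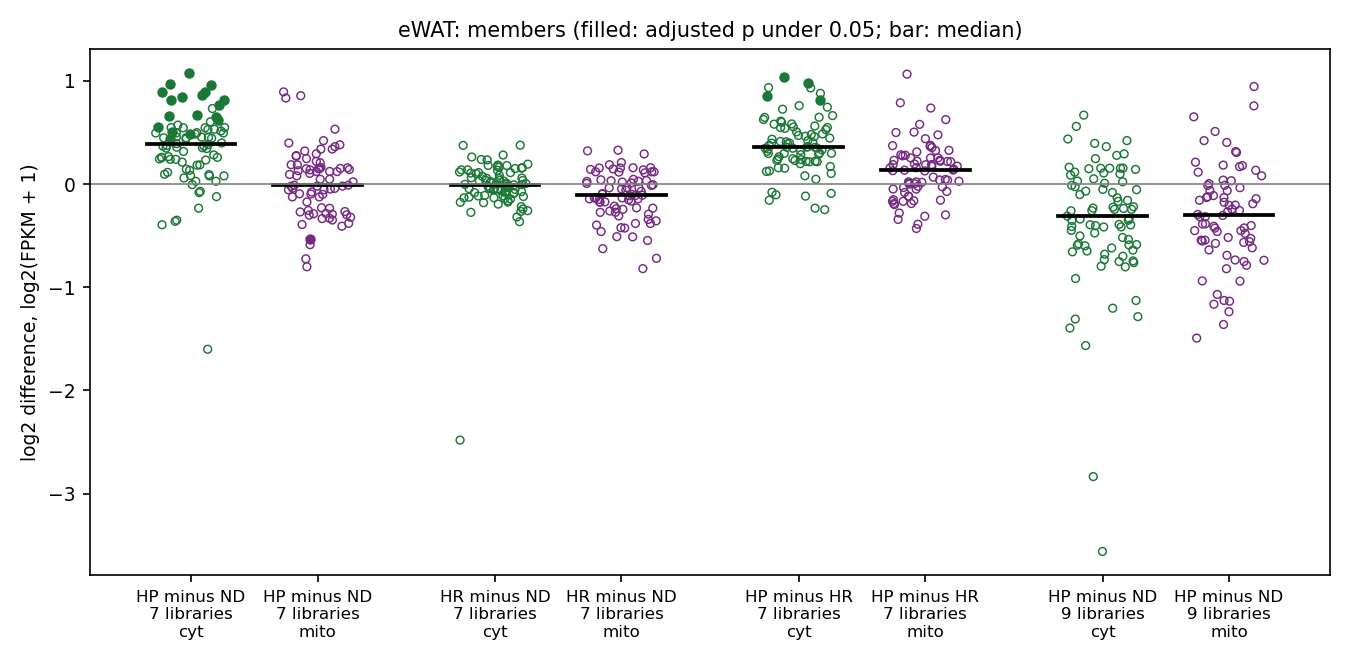
log2 differences of the tested members in eWAT over the 7 libraries without ND 1 and HR 2 (HP minus ND, HR minus ND and HP minus HR) and over all 9 libraries (HP minus ND, right), cytosolic in green and mitochondrial in purple; filled points passed an adjusted p of 0.05 and bars are medians. The cytosolic and mitochondrial medians of HP minus ND were 0.39 and -0.01 over 7 libraries and -0.31 and -0.30 over 9.

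The tissues were compared across the 18 libraries as eWAT minus liver. All libraries entered as independent, since the labels do not say whether fat and liver of the same number came from the same mouse. Deviations from the group mean correlated at -0.24 to 0.28 between same-numbered fat and liver libraries of a diet group, over 0.1 in 1 of 9 pairs. Of 83 cytosolic members 36 were higher and 1 lower (median 0.58), and of 75 mitochondrial members 7 were higher and 24 lower (median -0.17), against 57.8% higher and 14.6% lower over all 10100 genes (median 0.68). Over these 18 libraries the cytosolic median thus lay near that of all genes, and the mitochondrial median lay below it. After rescaling to equal FPKM sums, all genes had a median of 1.05 and 30 mitochondrial members were higher and 9 lower, so the direction of the mitochondrial class rests on the scaling, but its median (0.22) lay below that of all genes under both. Over the 16 libraries without eWAT ND 1 and HR 2, 59 cytosolic members were higher and 2 lower, and 9 mitochondrial members were higher and 37 lower, against 68.8% higher and 17.5% lower over all genes. The medians in that fit were 0.44 for the cytosolic and -0.23 for the mitochondrial members, against 0.71 over all genes. Both classes thus lay below the median gene there. Without eWAT ND 3 alone the cytosolic calls numbered 57.

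Among the members with the largest differences, Rps27l was the cytosolic member lower in fat (log2 -1.48 ± 0.20, adjusted p = 7.2e-06), with 120, 110 and 112 FPKM in HP fat against 391, 570 and 440 FPKM in HP livers. Rpl22l1, the paralogue of Rpl22 that in mice is held down by Rpl22 itself, was higher in fat (log2 1.504 ± 0.21, adjusted p = 1.2e-05), at 65.7 to 243 FPKM in eWAT against 25.6 to 43.5 FPKM in liver. Mrps6, a 28S protein, had the largest difference of any member (log2 2.76 ± 0.17, adjusted p = 2.0e-09), at 24.7 to 82.9 FPKM in eWAT against 5.64 to 13.8 FPKM in liver, and the groups did not overlap for it. Its exons share a strand with those of the inositol transporter gene Slc5a3, so these values may count reads of both. Mrps23 was also higher in fat (log2 1.26 ± 0.15, adjusted p = 3.3e-06). Mrpl14 (-1.32 ± 0.25), Mrps2 (-1.13 ± 0.17), Mrpl15 (-1.11 ± 0.15), Mrps31 (-1.04 ± 0.16), Mrpl18 (-0.90 ± 0.16) and Mrpl12 (-0.89 ± 0.24), a 39S protein of the stalk, were lower in fat, each with an adjusted p of 0.0038 or less.

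Whether the diet contrast differed between the tissues was tested as eWAT minus liver of HP minus ND. Over 18 libraries no cytosolic member (4 at an unadjusted p under 0.05) and 2 mitochondrial members were called, both lower, against 2.98% higher and 0.772% lower over all genes. Over 16 libraries 6 cytosolic members were higher and 1 lower and 18 mitochondrial members were lower, against 15.0% higher and 11.3% lower over all genes. The 18-library mitochondrial count was 10 without eWAT ND 3, 5 without HR 2, 4 without ND 2 and 3 without ND 1 of eWAT, and 0 without any 1 of the 3 eWAT HP libraries or of the 9 livers, and the cytosolic count was 2 without eWAT ND 3 and 1 without eWAT HR 2. Rpl3, one of the 3 cytosolic genes that fell in HP livers, had 310, 282 and 306 FPKM in HP fat, against 187 and 189 FPKM in ND fat (ND 2 and ND 3), where it rose by 0.67 (adjusted p = 0.011). Mrps15, a 28S protein, had 24.7, 30.2 and 27.6 FPKM in HP livers, against 17.7, 20.1 and 13.6 FPKM in ND livers, and 27.5, 23.3 and 21.8 FPKM in HP fat, against 45.7 and 35.8 FPKM in ND fat (ND 2 and ND 3). Its values were thus above those of ND mice in HP livers and below them in HP fat. For HR minus ND, limma called no member over 18 libraries (1 cytosolic and 16 mitochondrial at an unadjusted p under 0.05), against 0.0297% higher and 0.0396% lower over all genes. Over 16 libraries 6 mitochondrial members were lower and no cytosolic member was called (0 at an unadjusted p under 0.05), against 4.36% higher and 1.51% lower.

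Several members are widely used as reference genes, and they varied over these livers to different degrees. The coefficient of variation over the 9 livers was 12.3% for Rpl13a, 17.3% for Rplp0, 17.8% for Rps29, 20.5% for Rpl32, 30.2% for Rps18 and 35.7% for Rpl19, against a median of 25.04% for the cytosolic members that passed. Rplp0 fell and Rpl19 rose in HP against ND livers: Rpl19 had 336, 439 and 328 FPKM in HP livers, against 170, 247 and 176 FPKM in ND livers (log2 0.90, adjusted p = 0.0064). Rpl13a had 376, 371 and 358 FPKM in HP livers, against 280, 428 and 351 FPKM in ND livers (log2 0.08, adjusted p = 0.70), and the groups overlapped. Over the 7 eWAT libraries Rplp0 varied least of these genes (10.99%) and Rpl13a most (27.5%).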

How the data were processed

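The authors deposited FPKM values for 18 libraries. Tools named per the submitters' processing notes are STAR 2.4.0, Cufflinks 2.1.1 and CASAVA 1.8.2; what each did, the build, the gene models and strandedness of counting are not given in the sources. The kit was TruSeq for mRNA, per the labels' protocols. Names, lengths, GC content and exon overlaps came from GENCODE M21, which named 22671 of 23474 rows, and promoters from RefSeq (GRCm38.p6). FPKM carry no total count, so no counting interval is given. Steps of low values gave relative depths of 0.88 to 1.09 in liver, against ND 2.

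Groups came from the sample titles. log2(FPKM + 1) was tested with limma 3.58.1 (R 4.3.3, variance trend, two-sided) over genes reaching 1 FPKM in 3 or more libraries of a tissue (of each tissue across tissues), with 1 fit per tissue and Benjamini-Hochberg adjustment over all genes tested at 0.05. Differences on this scale understate changes of low genes. The fits without eWAT ND 1 and HR 2 stand beside those of all libraries. The tissue fit shares 1 spread per gene between tissues, which can understate that of eWAT. Up to 6 called members per class and direction with the largest difference were named (3 for tissue interactions), plus fixed reference genes, paralogues and up to 4 members of each list; not every one is described, and Rplp1 and the members at the ends of the level ranges were named after their values were seen. Members, lists and tests were chosen with earlier results of these data known. Alternatives were a pseudocount of 0.1, no filter, quantile normalization, rescaling, no variance trend, a length and GC correction (mgcv 1.9.3), the 2 compared groups alone, the replicate block, and leaving out libraries. On simulated data with 200 changed genes, 80% of genes changed by 1 (log2) and 98% of those changed by 2 were called in liver HP against ND among 10633 genes, 29% and 79% in eWAT HP against ND over 7 libraries among 13054 genes, and 0% and 16% over 9 libraries among 14430 genes. The simulated noise was independent between genes. In the data 1870 genes were called higher and 1502 lower in liver HP against ND. The simulated shares therefore do not measure recovery in these data. Figures were drawn with matplotlib 3.10.9. Results of some genes that the rule would name are not reported here.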

Additional observations from a re-analysis of the deposited data

Results flagged for a closer look

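The HP minus ND difference was compared between the tissues as eWAT minus liver, and a negative value means a lower difference in eWAT. Over all 18 libraries 2 mitochondrial members differed between tissues, Mrps15 at -1.79 ± 0.46 (adjusted p = 0.046) and Mrps30 at -1.27 ± 0.32 (adjusted p = 0.038). In that fit 2.98% of all genes were called higher and 0.772% lower. Both calls were lost when any single eWAT HP library or any single liver was left out. They were also lost after rescaling and with the replicate block.

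Over the 16 libraries without eWAT ND 1 and HR 2, 7 cytosolic members differed, against 15.0% of all genes called higher and 11.3% lower. The 60S genes Rpl3 at 1.16 ± 0.19, Rpl5 at 0.97 ± 0.18 and Rplp0 at 0.74 ± 0.20 led those that were higher in eWAT (adjusted p = 0.00046, 0.0012 and 0.013), and Rps27l at -0.92 ± 0.31 (adjusted p = 0.042) was lower. Rpl3, Rpl5 and Rplp0 are the genes that fell in HP livers, and that fall is part of the tested difference itself. Their place at the head of the 6 higher cytosolic members is therefore not a separate result. In the same fit 18 mitochondrial members differed, all lower in eWAT, led by Mrps36 at -1.45 ± 0.32, Mrps15 at -1.39 ± 0.32 and Mrpl38 at -1.33 ± 0.34 (adjusted p = 0.0039, 0.0050 and 0.011). Mrps36 had 17.5, 12.9 and 12.2 FPKM in HP fat, against 14.97 and 10.99 FPKM in ND fat (ND 2 and ND 3), and 11.9, 17.7 and 11.6 FPKM in HP livers, against 2.59, 5.56 and 3.89 FPKM in ND livers.

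For HR minus ND 6 mitochondrial members differed over the 16 libraries, against 4.36% of all genes called higher and 1.51% lower, again all lower in eWAT. They were led by Mrpl38 at -1.39 ± 0.36, Mrps30 at -1.17 ± 0.25 and Mrpl39 at -0.95 ± 0.24 (adjusted p = 0.036, 0.012 and 0.034). Mrps30 had 10.3 and 9.53 FPKM in HR fat (HR 1 and HR 3), against 19.7 and 12.6 FPKM in ND fat (ND 2 and ND 3), and 13.7, 12.8 and 11.5 FPKM in HR livers, against 8.55, 8.94 and 7.63 FPKM in ND livers.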

How the results depend on the processing

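Of the values recomputed for named members, 1124 kept their direction and side of the threshold, 150 kept the direction and lost the call, and 2 reversed. The 2 were tissue differences under quantile normalization, Mrps15 at -0.037 and Mrpl3 at -0.24. A count is taken as moved when it differs from the reported one by over 1.5 times, and a class level when it differs by at least 1 SD; 109 moved and 365 did not. The cause was not tested for any of them. Shares of all genes called are given for the fits without eWAT ND 1 and HR 2 and not for the other alternatives. For those others, whether the member counts moved with the calls over all genes is not shown. For liver HP against ND, the alternatives that kept all libraries stayed within that tolerance, with 30 cytosolic and 33 mitochondrial calls after rescaling and 25 and 38 with the length and GC correction.

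With the length and GC correction, the 7-library eWAT fit called 34 cytosolic and 6 mitochondrial members for HP against ND, 15 cytosolic for HP against HR and 1 mitochondrial for HR against ND, and liver HR against ND called 5 mitochondrial members. Without the filter there were 8 cytosolic and 10 mitochondrial calls for liver HP against HR, 9 and 0 for 7-library eWAT HP against ND, and 1 cytosolic for HP against HR. Without the variance trend the last 2 comparisons gave 0 mitochondrial and 2 cytosolic calls. A pseudocount of 0.1 gave 1 mitochondrial call for the 18-library tissue interaction of HP against ND. Quantile normalization gave 3 mitochondrial calls for 7-library HP against ND, 11 cytosolic for HP against HR and 58 mitochondrial between tissues. Rescaling gave 39 cytosolic and 3 mitochondrial calls for 7-library HP against ND, 11 cytosolic for HP against HR, 13 mitochondrial for liver HP against HR, 77 cytosolic between tissues and 0 mitochondrial for the interaction.

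Without eWAT ND 1 and HR 2 the calls were 18 cytosolic and 1 mitochondrial for HP against ND, 4 cytosolic for HP against HR, 61 cytosolic between tissues, 7 cytosolic and 18 mitochondrial for the HP interaction and 6 mitochondrial for the HR interaction. Without these and eWAT ND 3 and HP 1, which also held over 1000 FPKM of spermatid transcripts, they were 5 and 4 for HP against ND, 8 and 1 for HP against HR, 1 and 2 for HR against ND, 60 cytosolic between tissues, 6 and 34 for the HP interaction and 12 mitochondrial for the HR interaction.

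Leaving out 1 library at a time gave 13 to 53 cytosolic and 31 to 50 mitochondrial calls for liver HP against ND, 0 and 1 to 4 for HR against ND, and 1 to 30 and 4 to 22 for HP against HR. In the 7-library eWAT fit it gave 6 to 28 and 0 to 4 for HP against ND, 0 and 0 to 1 for HR against ND, and 0 to 19 and 0 to 2 for HP against HR. Between tissues it gave 28 to 57 and 27 to 38, and for the HP interaction 0 to 2 and 0 to 10. Where a group is left with 1 library, that library is assumed to vary like the other groups.

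Same-numbered libraries did not all deviate together (correlations of -0.35 to 0.43 in liver, over 0.1 in 2 of 9 pairs; -0.84 to 0.62 in eWAT, over 0.1 in 4 of 9; -0.63 to 0.28 over 7 eWAT libraries, in 3 of 5), so the numbers were not taken as pairs. With the replicate block the calls were 10 cytosolic and 3 mitochondrial for 7-library eWAT HP against ND, 0 cytosolic for HP against HR, 1 mitochondrial for liver HR against ND and 0 mitochondrial for the HP interaction. FPKM hold no counts, so the depth behind a single low value is unknown.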
